A study of Homo sapiens with 3 samples.

Results

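The genes for 9 receptors on the T-cell surface were followed across 3 RNA-seq libraries of Jurkat cells: CD28, ICOS and CTLA4 of the CD28 family, CD2, CD5, CD6 and CD7 of the T-lineage surface, the tumour necrosis factor receptor family member CD27, and the activation marker CD69. The genes were chosen by symbol, and CD28 was selected on its own values in these libraries, being low in control and higher in both treated libraries. The levels and ratios of CD28 are therefore a description. Of the 9 genes, 8 had a row among the 17329 genes of the table, and CTLA4 was not analysed here.

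Jurkat is an established human T-lineage acute lymphoblastic leukaemia line. Polyadenylated RNA was taken after 48 hours from cells in standard medium (control), in medium with sodium oxamate at 50 mM (oxamate), and in medium with oxamate at the same dose plus L-sodium lactate at 10 mM (oxamate+lactate). Oxamate inhibits lactate dehydrogenase, and the series asks how loss and return of lactate, the donor for lactylation of histone H3 at lysine 18, relate to transcription. Each condition had 1 library, the labels do not say how many cultures stand behind it, and they name no stimulus of the T-cell receptor or of CD28. With single libraries, none of the differences described has a replicate check, a standard error or a p-value.

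T cells need a signal through the T-cell receptor and a costimulatory one. CD28 gives the main costimulatory signal when it binds CD80 or CD86 on an antigen-presenting cell: its cytoplasmic tail recruits phosphatidylinositol 3-kinase and GRB2-type adaptors, and protein kinase C theta carries the signal towards NF-kB. CTLA4 binds the same ligands and restrains the response, and ICOS, the last gene of the cluster, acts on cells that are already activated. CD2 is an adhesion receptor for CD58, CD6 binds ALCAM, and CD5 and CD6 tune receptor signals. CD7 is an early T-lineage marker, and CD27 binds CD70. CD69 holds back the exit of lymphocytes by lowering S1PR1 on the cell surface.

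CD28, CTLA4 and ICOS lie next to each other on chromosome 2 in the RefSeq order of coding genes, and their upstream sequences are shown because the 3 are related neighbours, of which CD28 and ICOS had unlike values and CTLA4 none here. The sequences are from RefSeq, build GRCh38.p14, on the plus strand, and capitals mark the ETS core GGAA on either strand. For CTLA4 and ICOS they are the 250 bases before the annotated start. For CD28 they are the first 93 bases of that window, which end where the first RefSeq transcript of the gene begins. The intervals are chr2:203706389-203706481 for CD28, chr2:203867521-203867770 for CTLA4 and chr2:203936513-203936762 for ICOS. The deposited values were made on another build, hg19, so no read position is placed on them.
CD28: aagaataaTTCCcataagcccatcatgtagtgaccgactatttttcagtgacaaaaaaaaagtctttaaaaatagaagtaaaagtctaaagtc
CTLA4: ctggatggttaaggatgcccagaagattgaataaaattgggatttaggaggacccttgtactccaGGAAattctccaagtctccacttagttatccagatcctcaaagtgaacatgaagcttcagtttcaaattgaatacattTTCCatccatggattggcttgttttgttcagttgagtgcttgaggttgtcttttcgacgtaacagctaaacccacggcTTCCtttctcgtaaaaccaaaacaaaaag
ICOS: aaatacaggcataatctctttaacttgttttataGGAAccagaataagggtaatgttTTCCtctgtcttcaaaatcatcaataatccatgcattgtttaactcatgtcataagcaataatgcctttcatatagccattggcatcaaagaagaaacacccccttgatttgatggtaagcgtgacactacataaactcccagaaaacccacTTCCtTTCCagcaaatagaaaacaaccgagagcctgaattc

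In the 250-base windows, GGAA was found 2 times for CD28, 3 times for CTLA4 and 4 times for ICOS, and 92.7% of 35116 RefSeq promoter windows of that length held it. The RUNX core TGTGGT was found 1 time in the window of CD28 and not in those of CTLA4 or ICOS, and 3855 windows held it. This match and 1 of the 2 GGAA matches of CD28 lie past the printed bases, inside the annotated gene, so the counts for CD28 and for its neighbours do not cover like stretches. The AP-1 site TGANTCA, searched like the others on both strands, was in none of these 3 windows and in 6.57% of all. The windows of CD28, CTLA4 and ICOS had a GC content of 45.2%, 40.4% and 36.8%, against a median of 58.0% over all windows. Such a window was at hand for 5 of the 9 genes. These matches describe the letters only.

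The values are normalized counts as deposited, and the reads behind them are unknown, so no counting interval is given. They summed over genes to between 8171633 and 8821115 per library. Ratios are log2((value + 1)/(value + 1)), which understates the difference of low genes. Over the 12292 genes whose mean across the 3 libraries was 50 or more, the median ratio was 0.08 for oxamate against control, -0.01 for oxamate+lactate against control and -0.09 for oxamate+lactate against oxamate. The ERCC spike-in RNAs, added after extraction, give the only technical spread. For the 18 with a mean of at least 100 the ratios lay between -0.24 and 0.29, between -0.39 and 0.39 and between -0.39 and 0.10 in the same order. For the 14 with a mean of 10 to 100 they lay between -1.66 and 0.23, between -1.21 and 0.32 and between -0.61 and 0.64. In the comparisons against control, the 10th percentiles of these ratios were -0.67 and -0.96. The low ends of those ranges thus rest on few RNAs and leave more room for falls than for rises. Markers of T cells were present in all 3 libraries. CD3E, a chain of the receptor complex, had 4488, 4128 and 4011 normalized counts in the control, oxamate and oxamate+lactate libraries, and 13 of 15 genes of the receptor complex list had a row. The coreceptor gene CD4 was low, at 37, 21 and 25, and CD8A was at 74, 58 and 34. Summed levels were 79 to 99 for 4 of 6 B cell markers with a row, 6 to 19 for 1 of 7 myeloid markers (CD68) and 26 to 40 for 2 of 6 NK cell markers. No erythroid marker had a row, and of 4 fibroblast markers only COL1A1 had one, at 202, 202 and 165. The part of other cells in the results was not tested.

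CD28 was close to 0 in control and higher in both treated libraries. It had 3 normalized counts in control, 66 with oxamate and 20 with oxamate+lactate. Oxamate was highest, oxamate+lactate lay between, and control was lowest. The plain ratio of oxamate to control was 22.0, but it stands on a control value of 3, for which no counting interval can be had, and with 1 added to each value it was 16.75-fold (log2 ratio 4.07). Oxamate+lactate against control was 5.25-fold (2.39), and oxamate+lactate against oxamate was 3.19-fold lower (-1.67). All 3 ratios lay outside the range of the ERCC RNAs with a mean of 10 to 100. With 10 added in place of 1, they were 2.55, 1.21 and -1.34. In a bulk library, a few cells with much CD28 RNA and many cells with little cannot be told apart.

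The mean of CD28 over the libraries, 29.67, is under the floor of 50, so it was set beside the 2159 genes with a mean of 20 to 50. Among these, 7.87% were at least 2-fold higher in oxamate than in control, 5.47% at least 2-fold higher in oxamate+lactate than in control, and 1.67% at least 2-fold lower in oxamate+lactate than in oxamate. CD28 passed 2-fold in each of the 3. It had rank 1 of 2159 for both ratios against control and rank 2 from the bottom for oxamate+lactate against oxamate. Over all 17329 genes, with no floor, it ranked 2 for oxamate against control, 57 for oxamate+lactate against control and 43 from the bottom for oxamate+lactate against oxamate. These ranks are what selected the gene and support nothing further.

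**Figure D1:**
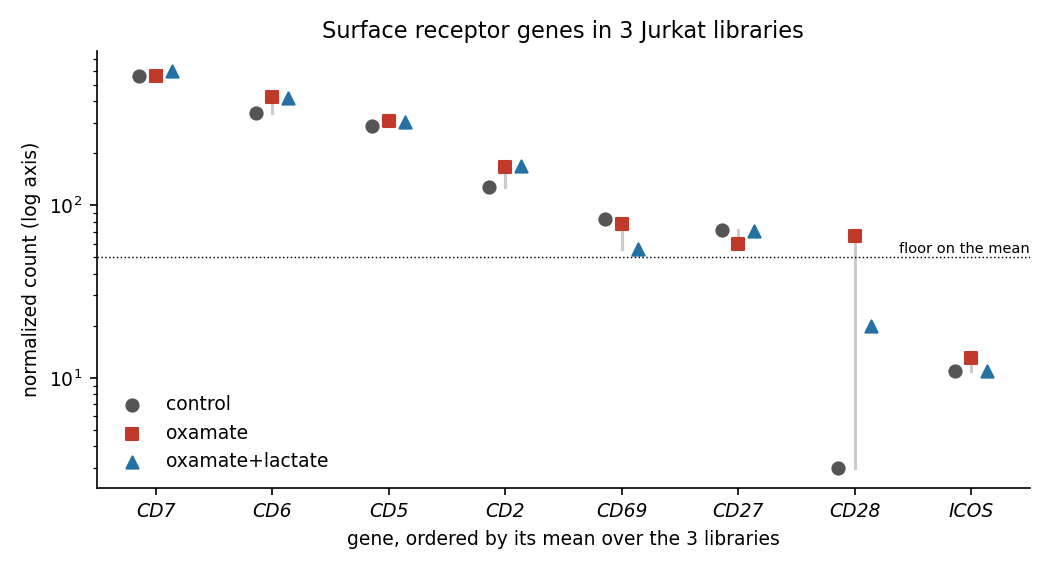
Normalized counts (log axis) of the 8 receptor genes with a row, ordered by their mean, in control (circles), oxamate (squares) and oxamate+lactate (triangles), 1 library each, with a grey line over their range. CD28 runs from 3 in control to 66 in oxamate, while the 3 values of each of the other 7 genes lie close together. The dotted line is the floor of 50, which applies to the mean.

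**Figure D2:**
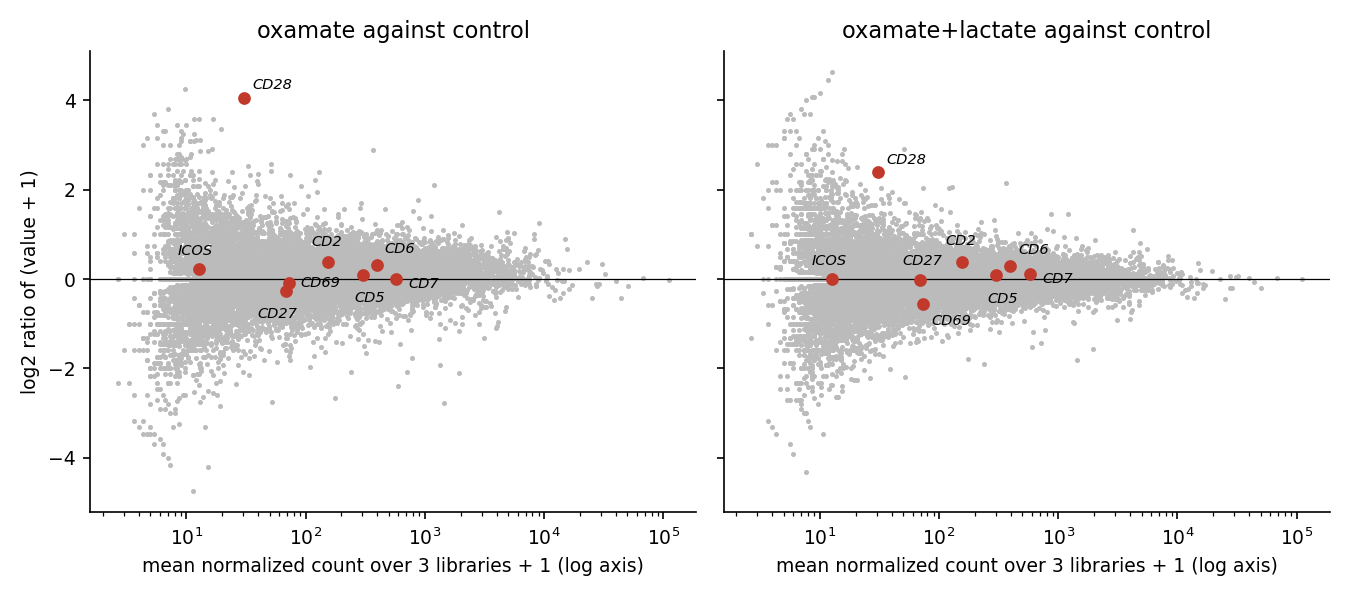
Log2 ratio of (value + 1) against the mean normalized count plus 1 (log axis) for all 17329 genes (grey) and the 8 receptor genes (red), for oxamate against control and oxamate+lactate against control. CD28, at 4.07 and 2.39, lies at the upper edge of the genes of its level, and the other receptor genes lie within the cloud of genes of theirs.

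ICOS, the inducible costimulator, did not share the pattern of its neighbour. It had 11 normalized counts in control, 13 with oxamate and 11 with oxamate+lactate. Its ratios were 0.22, 0.00 and -0.22, inside the range of the ERCC RNAs with a mean of 10 to 100, so the 3 values have no order beyond that spread. Per kilobase of the longest coding transcript in GENCODE 29, CD28 had 0.6234 normalized counts in control and ICOS 4.159. In oxamate CD28 had 13.72 and ICOS 4.915, and in oxamate+lactate they had 4.156 and 4.159. Per kilobase, CD28 thus stood below ICOS in control, above it in oxamate and level with it in oxamate+lactate. The last depends on the lengths used: before division by them, CD28 had 20 normalized counts in oxamate+lactate and ICOS 11. Which transcripts were expressed is not known here. The difference between the ratios of the 2 genes was not tested, with 1 library per condition.

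The coding genes around the cluster gave no like ratios. RAPH1, the gene before CD28, had 180 normalized counts in control, 153 with oxamate and 158 with oxamate+lactate. ABI2, the gene before that, had 1461, 1081 and 1033, and PARD3B, the gene after ICOS, had 98, 65 and 67. The ratios of these 3 for oxamate against control were -0.23, -0.43 and -0.58, all lower where CD28 was higher. CYP20A1, on the far side of ABI2, had 92, 99 and 91.

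Of the 9 receptor genes, 6 had a mean over the floor of 50: CD2, CD5, CD6, CD7, CD27 and CD69. None of these 6 was 1.5-fold higher or lower in any comparison, and the genes under the floor were CD28 and ICOS. Among all 12292 genes over the floor, 7.48% were at least 1.5-fold higher and 3.98% lower in oxamate than in control. For oxamate+lactate against control the shares were 2.99% and 3.07%, and for oxamate+lactate against oxamate 0.252% and 0.903%. The split depends on the scaling: 920 genes higher and 489 lower in oxamate than in control became 569 and 702 with equal totals over genes, and 31 and 111 for oxamate+lactate against oxamate became 78 and 42. With such shares, a count of 0 among 6 genes is near the background. The median ratio of the 6 was 0.05 for oxamate against control (0.08 over all genes), 0.09 for oxamate+lactate against control (-0.01) and 0.00 for oxamate+lactate against oxamate (-0.09).

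CD2, the adhesion receptor for CD58, was higher in both treated libraries. It had 128 normalized counts in control, 166 with oxamate and 168 with oxamate+lactate. The ratios against control were 0.37 and 0.39, of which the first lay outside the ERCC range for RNAs with a mean of at least 100 and the second at its edge, inside it. The treated libraries differed by 0.02. Of all genes over the floor, 81.4% had a lower ratio than CD2 for oxamate against control and 92.0% for oxamate+lactate against control.

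CD6, a scavenger receptor family protein that binds ALCAM, was also higher in both treated libraries than in control. Its values were 341 in control, 422 with oxamate and 416 with oxamate+lactate. The ratios against control were 0.31, outside the ERCC range, and 0.29, inside it, and the treated libraries differed by -0.02. Its relative and neighbour CD5, a restraint on receptor signals, had 288, 308 and 305, with ratios of 0.10, 0.08 and -0.01 inside the ERCC range. With equal totals over genes, the ratio of CD5 for oxamate against control was -0.0049. VPS37C, on the far side of CD5, had 109, 117 and 125. The coding gene on the far side of CD6 is not reported here, so nothing is said of the surroundings as a whole.

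CD7, the early T-lineage marker, had the highest values of the 8. It had 561 normalized counts in control, 560 with oxamate and 603 with oxamate+lactate. The ratio of oxamate against control was 0.00, and the excess of oxamate+lactate over oxamate, 0.11, lay just above the highest ERCC RNA. Per kilobase of the longest coding transcript CD7 was also first in each library, with 277.6 in control, 277.1 with oxamate and 298.4 with oxamate+lactate. CD6 came next, with 104.9, 129.8 and 127.9. CD2 had 79.55, 103.2 and 104.4, and CD5 had 89.41, 95.62 and 94.69, so CD5 led CD2 in control and CD2 led CD5 in the treated libraries, with no replicate to weigh either gap. CD27, a shorter transcript, had 53.81, 44.84 and 53.06, and CD69 had 49.52, 46.54 and 33.41, so these 2 genes came after CD5 and CD2 and before ICOS.

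CD69, a C-type lectin induced early in activation, was lowest with lactate added. It had 83 normalized counts in control, 78 with oxamate and 56 with oxamate+lactate. The ratios were -0.09 for oxamate against control, -0.56 for oxamate+lactate against control and -0.47 for oxamate+lactate against oxamate. All 3 lay inside the range of the ERCC RNAs with a mean of 10 to 100, and 1.47-fold lower against control is just short of 1.5-fold. Of all genes over the floor, 3.42% had a lower ratio for oxamate+lactate against control and 2.20% for oxamate+lactate against oxamate. CD69 and CD28 thus had ratios of opposite sign for oxamate+lactate against control.

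CD27, the receptor for CD70, was lowest in oxamate. It had 72 normalized counts in control, 60 with oxamate and 71 with oxamate+lactate, with ratios of -0.26, -0.02 and 0.24 inside the range of the ERCC RNAs. The gene overlaps the antisense gene CD27-AS1, which had 144, 98 and 124, and the coding gene TAPBPL, with 154, 171 and 148. Strand was not kept by the library kit, so CD27 reads and those of its antisense partner cannot be told apart, and CD27-AS1 had the same order of libraries.

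**Figure D3:**
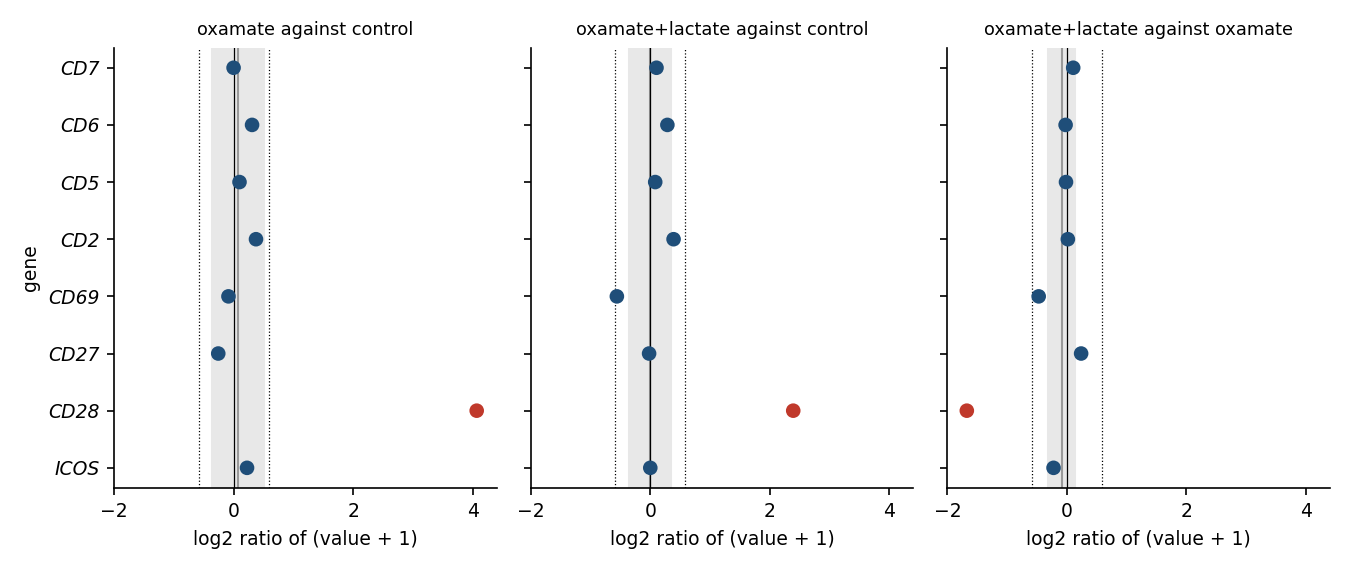
Log2 ratio of (value + 1) for the 8 receptor genes in the 3 comparisons of libraries, with CD28 in red. The grey band spans the 10th to 90th percentile of the 12292 genes over the floor, the grey line their median, and the dotted lines mark 1.5-fold. CD28 lies beyond 1.5-fold in each panel, at 4.07, 2.39 and -1.67, and the other 7 genes lie inside the dotted lines.

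Few ligand genes were expressed at the level of the receptors. Of 9 ligand genes, 6 had a row, and CD80, CD86 and SECTM1 were not analysed here. Those over the floor were CD59, an inhibitor of complement that also binds CD2, at 373, 444 and 419 in the control, oxamate and oxamate+lactate libraries, and ALCAM, the ligand of CD6, at 455, 467 and 455. Neither was 1.5-fold different. CD58, the main ligand of CD2, had 32, 45 and 49. Like CD2 it was higher in both treated libraries, and for both genes the ratio between the treated libraries lay inside the ERCC range. CD48 had 53, 42 and 50. ICOSLG had 9, 19 and 12, and CD70, the ligand of CD27, had 12, 5 and 7.

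Of 24 genes of CD28 signalling, 23 were over the floor, and their median ratio for oxamate against control was 0.22 (0.08 over all genes). A ratio above 0 was found for 20 of the 23, against 59.6% of all genes, and one above the all-gene median for 15. With equal totals over genes, 15 of the 23 were above 0, against 47.5% of all genes. In oxamate against control, 1 of the 23 was at least 1.5-fold higher (7.48% of all genes) and 1 lower (3.98%). The lower gene is not reported here. FLNA, the actin crosslinker filamin A that binds the tail of CD28, had 5713 normalized counts in control, 11563 with oxamate and 7664 with oxamate+lactate (1.02 for oxamate against control and -0.59 for oxamate+lactate against oxamate).

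Smaller differences were measured for other genes of the pathway. PIK3R1, the regulatory subunit of phosphatidylinositol 3-kinase, had 560, 728 and 706 normalized counts (0.38). The adaptor gene GRAP2 had 935, 1362 and 1141 (0.54), and VAV1, a guanine nucleotide exchange factor, had 815, 1009 and 902 (0.31). CARMIL2, a scaffold protein of CD28 costimulation, is listed under its older symbol and had 1985, 2230 and 1895 (0.17). Each of these 4 genes was highest in oxamate, none at 1.5-fold. For oxamate+lactate against control the median of the signalling list was 0.05. No gene of it was past 1.5-fold there, where 2.99% of all genes were higher and 3.07% lower. For oxamate+lactate against oxamate the median was -0.16 (-0.09 over all genes), with FLNA lower (0.903% of all genes).

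Adaptors of CD2, CD5, CD6, CD27 and CTLA4 had a median of -0.03 for oxamate against control. Of 21 genes, all over the floor, none was 1.5-fold higher (7.48% of all genes) and 2 were lower (3.98%). CBLB, the ubiquitin ligase that sets the need for CD28 costimulation, had 250 normalized counts in control, 165 with oxamate and 194 with oxamate+lactate (-0.60). CSNK2B, a subunit of the casein kinase that binds CD5, had 60, 39 and 56 (-0.61, inside the range of the ERCC RNAs with a mean of 10 to 100), and it overlaps GPANK1 and LY6G5B. In both comparisons of the oxamate+lactate library, none of the 21 was past 1.5-fold. Against control, 2.99% of all genes were higher and 3.07% lower, and against oxamate 0.252% and 0.903%.

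Of 30 other costimulatory and adhesion receptors, 23 had a row and 19 were over the floor. In oxamate against control, 2 of the 19 were at least 1.5-fold higher (7.48% of all genes) and 3 lower (3.98%). The median was 0.12 (0.08 over all genes). CD84, a homophilic receptor of the SLAM family, had 163, 336 and 238 normalized counts (1.04), and the tetraspanin gene CD82 had 345, 671 and 466 (0.96). CD96, a receptor for the nectin-like protein PVR, had 115, 39 and 69 (-1.54). LY9, another SLAM family receptor, had 103, 41 and 63 (-1.31), and ITGB7, the integrin chain of gut homing, had 89, 44 and 53 (2-fold lower; it overlaps ZNF740). For each of these 5, oxamate+lactate lay between control and oxamate. With lactate added, CD96 and LY9 were 1.5-fold higher than in oxamate (0.81 and 0.61) and still 1.5-fold lower than in control (-0.73 and -0.70), as was ITGB7 (-0.74). All ratios of CD96, LY9 and ITGB7 against control lay inside the range of the ERCC RNAs with a mean of 10 to 100, and those of CD84 and CD82 outside the range for a mean of at least 100. For oxamate against control, CD96, LY9 and ITGB7 lay below the 10th percentile of the RNAs with a mean of 10 to 100, -0.67. For oxamate+lactate against oxamate, the ratio of CD96 lay outside the range for a mean of 10 to 100, and that of LY9 inside it.

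Of 12 inhibitory receptors, 5 had a row and only LAIR1, a receptor for collagens, was over the floor. It had 818 normalized counts in control, 468 with oxamate and 551 with oxamate+lactate (-0.80, -0.57 and 0.24). PDCD1, which encodes PD-1, had 32, 18 and 26. Of the T-cell receptor complex list, 11 genes were over the floor, with a median of 0.05 for oxamate against control. None was 1.5-fold different between these 2 libraries, where 7.48% of all genes were higher and 3.98% lower. LCK, the kinase that phosphorylates the receptor chains and the CD28 tail, had 3316, 4368 and 3861 (0.40), and ZAP70, the kinase recruited to the receptor, had 2353, 3358 and 2746 (0.51). FYN, a kinase related to LCK, went the other way, with 1092, 733 and 765 (-0.57). CD8A was 2.14-fold lower in oxamate+lactate than in control, inside the range of the ERCC RNAs with a mean of 10 to 100. Against oxamate, the oxamate+lactate library had 1.69-fold less CD8A (-0.75), outside that range. In each of these 2 comparisons, 1 of the 11 genes was at least 1.5-fold lower, against 3.07% and 0.903% of all genes.

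**Figure D4:**
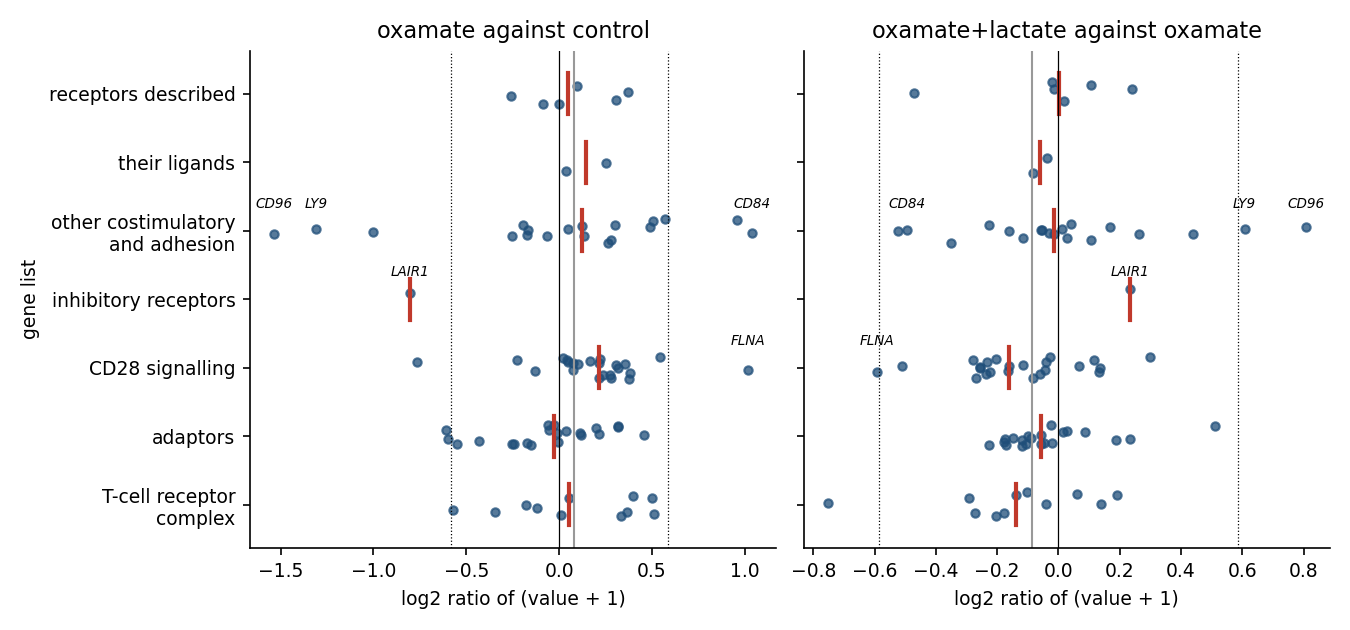
Log2 ratio of (value + 1) of each gene over the floor (points, jittered vertically) by list, for oxamate against control and oxamate+lactate against oxamate. Red bars are list medians, the grey line is the median of all 12292 genes, and dotted lines mark 1.5-fold. The 6 receptor genes described lie inside the dotted lines, and CD96, LY9, CD84, CD82, ITGB7, LAIR1 and FLNA are among those outside them in the left panel.

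Genes with a pattern like that of CD28 were sought by their distance in the pair of log2 ratios against control, leaving out rows named as clones or loci. Among 9855 such genes whose mean was 100 or more, the nearest was EGR1, an early growth response factor, at a distance of 1.20, with 85, 636 and 381 normalized counts in the control, oxamate and oxamate+lactate libraries. Next were the transcription factor genes MAF, at 1.70, with 36, 194 and 153, and KLF2, at 2.17, with 446, 1922 and 1223. They were followed by KCTD11 (2.29) and RFX8 (2.35). None of these 5 reached the ratio of CD28 for oxamate against control, which ranked 2 over all 17329 genes. By the choice of a mean of 100 or more, all lie above the mean of CD28, 29.67. Among 2674 genes with a mean of 20 to 100, a range set after the values were seen, the nearest were MURC (1.58), KRT1 (1.63), GUSBP3 (1.72), CEBPE (1.78), DCLK3 (1.87) and MSLNL (2.03). MURC had 8, 51 and 36 normalized counts, and KRT1, a keratin gene, had 14, 89 and 48. A likeness over 3 libraries, of which control is shared by both ratios, describes these values only.

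**Figure D5:**
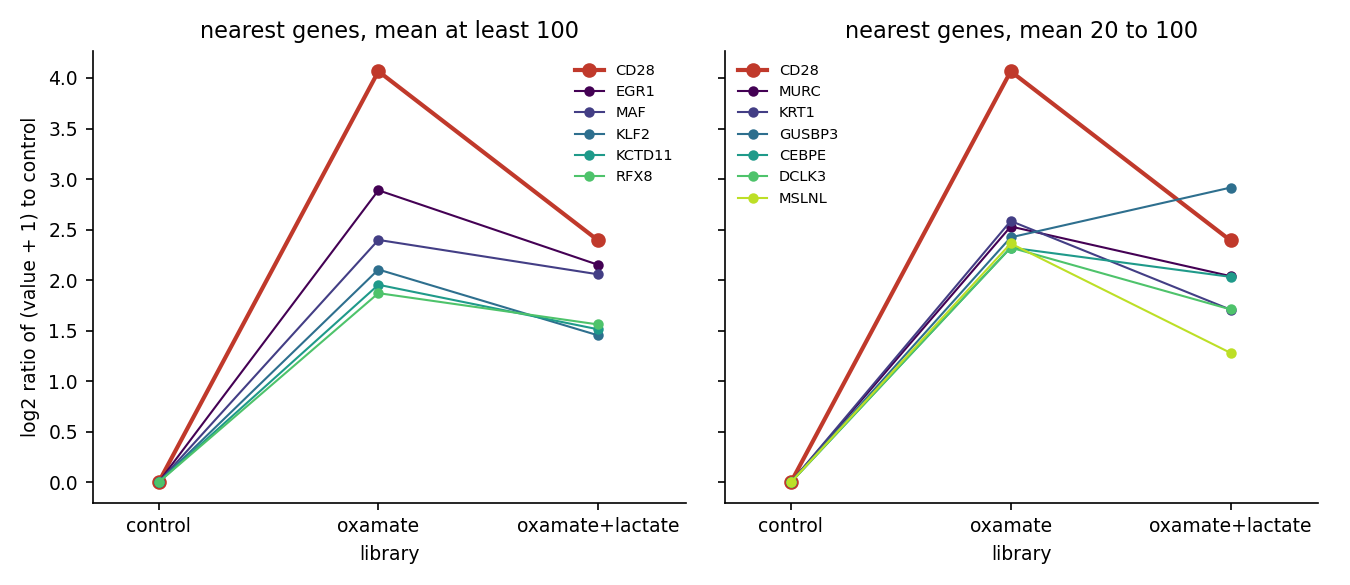
Log2 ratio of (value + 1) to control in the 3 libraries for CD28 (thick red line) and genes near to it with a mean of at least 100 (left, 5 genes) or of 20 to 100 (right, 6 genes). Lines join the values of a gene and stand for no time course. CD28 has the highest point in oxamate in both panels, and each gene except GUSBP3 is lower in oxamate+lactate than in oxamate.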

How the data were processed

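One table for the series was analysed. Its values are normalized counts that the authors made and rounded to whole numbers, and they were treated as a score, not as counts. The submitters' processing notes name the build hg19, HTSeq 0.11.2, STAR 2.7.1a and FastQC 0.11.9, without role or order. The annotation, the gene filter and the normalization are unknown here. Poly(A) selection, an ERCC spike-in and a kit that does not mark strand were used, per the labels' protocols.

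Of 17365 rows, 36 are ERCC RNAs and were kept apart. Ratios used a pseudocount of 1, and lists a floor of 50 on the mean over the 3 libraries. A fold of 1.5 was counted, with no test, since each condition had 1 library. Groups follow the treatment label. The members and lists were chosen with earlier results of these data known. Genes named beside the members are list genes past 1.5-fold in any comparison, at most 3 at each end, ligands, markers, chromosomal neighbours, and the 6 nearest to CD28 in Euclidean distance over both log2 ratios to control, clone and locus names left out; some items are not reported here. PIK3R1, GRAP2, VAV1, CARMIL2, PRKCQ, PIK3CA, LCK, ZAP70, FYN and genes under the floor were chosen after their values were seen. Lengths and overlaps are from GENCODE 29 and promoters from RefSeq, both on a later build than hg19; symbols were also matched by RefSeq synonyms. The alternatives were other pseudocounts, floors and scalings; the floor of 20, the members without CD27, the ranges of 20 to 50 and 20 to 100 and the share of signalling genes above 0 were added after seeing the data. Scripts ran in Python 3.11.15 with pandas 2.3.3 and were tested on simulated data.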

Additional observations from a re-analysis of the deposited data

How the results depend on the processing

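No paired analysis was possible because each condition had 1 library. The ratios of CD28 depended on the pseudocount: with 10 they were 2.55 for oxamate against control, 1.21 for oxamate+lactate against control and -1.34 for oxamate+lactate against oxamate, and with 0.5 the first was 4.25. With no floor, or with a floor of 20 (chosen after seeing the data), CD28 entered the counts: 1 member was at least 1.5-fold higher in oxamate and 1 in oxamate+lactate than in control, and 1 was lower in oxamate+lactate than in oxamate, each against 0 with the floor of 50. The medians of the members moved by less than the SD of the ERCC ratios under every alternative run, though equal totals gave -0.05 for oxamate against control. Of the 24 ratios of members, 3 changed sign with equal totals, 4 with equal ERCC sums and 2 relative to the all-gene median, all of CD5, CD6, CD7 or CD27 and all near 0.

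Equal totals moved the all-gene median for oxamate against control from 0.08 to -0.02, and the counts of genes past 1.5-fold from 920 higher and 489 lower to 569 and 702. For oxamate+lactate against oxamate, 31 higher and 111 lower became 78 and 42 with equal totals, 56 and 68 with equal ERCC sums, and 66 and 52 relative to the all-gene median. With a pseudocount of 10 the count of 31 was 20. With no floor the counts were 2154 and 1632, 1480 and 1549, and 663 and 864 for the 3 comparisons in the order used for CD28, with a floor of 200 they were 493 and 161, 120 and 100, and 8 and 24, and with a floor of 20 they were 1347 and 824, 712 and 748, and 122 and 309. The depth in reads is unknown, which limits what can be said of low values such as those of CD28 and ICOS.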

Other observations

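Some receptor and ligand genes under the floor had values with the order of those of CD28, and others had the reverse order. How often either order occurs among all genes of this level was not counted. TNFRSF4, which encodes the costimulatory receptor OX40, had 2 normalized counts in control, 12 with oxamate and 4 with oxamate+lactate. CD40LG, the T-cell ligand that activates B cells through CD40, had 15, 36 and 24. ICOSLG had 9, 19 and 12. KLRG1, an inhibitory lectin-like receptor, had 4, 13 and 12, and the receptor gene CD160 had 31, 40 and 32. In the other direction, CD70 had 12, 5 and 7, and the receptor gene TMIGD2 had 44, 29 and 37. The inhibitory receptor genes PDCD1 and VSIR had 32, 18 and 26 and 49, 28 and 38, and the ligand gene CD48 had 53, 42 and 50. These genes were picked after their values were seen, and values this low have no known counting error here.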
